A study of Mus musculus with 16 samples.

Results

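Abcc8 and Kcnj11 encode the subunits of the ATP-sensitive potassium (KATP) channel of the beta cell, and both were examined in every islet RNA-seq library of the founder strains of the Diversity Outbred mouse population. They were picked by name, as the 2 subunit genes of 1 channel, among 54146 genes of the expression tables, and both passed the filters that left 15204 genes for testing. The data are 91 libraries of whole-islet RNA from mice of 26 weeks, all of which were fed a high-fat diet, so no strain has a group on another diet. The 16 samples are the females and the males of 8 inbred strains. With the short names used here, these are 129 (129S1_SvImJ, 10 libraries), AJ (A_J, 14), B6 (C57BL/6J, 18), CAST (CAST_EiJ, 14), NOD (NOD_ShiLtJ, 10), NZO (NZO_HlLtJ, 4), PWK (PWK_PhJ, 5) and WSB (WSB_EiJ, 16). Females and males were equally represented in 129, AJ, B6 and NOD, whereas NZO had 1 male library and PWK had 1 female library.

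The KATP channel is built from a pore protein, Kir6.2, encoded by Kcnj11, and a regulatory protein of the ABC transporter family, the sulfonylurea receptor SUR1, encoded by Abcc8, in equal numbers. When glucose metabolism raises the ratio of ATP to ADP in the beta cell, the channel closes, the membrane depolarizes, calcium enters through voltage-gated channels and insulin granules are released. Sulfonylurea drugs close the channel by binding SUR1, and variants in either gene can cause neonatal diabetes or congenital hyperinsulinism. Each subunit needs the other to reach the cell surface.

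The genes are neighbours on chromosome 7 (GRCm38) and are read from the same strand, the minus strand. Kcnj11 (ENSMUSG00000096146.2) lies from 46093953 to 46100764 and Abcc8 (ENSMUSG00000040136.10) from 46104523 to 46180033, with 3758 bases between them. In the annotation, the principal transcript of Abcc8 has 39 exons and 4877 exonic bases, and that of Kcnj11 has 1 exon of 3142 bases.

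The libraries held between 16928552 and 35196145 expected counts in all, and 3 counts corresponded to between 0.0852 and 0.177 CPM (counts scaled to the library total), far below the level of either gene. The defining hormone genes of islet cells were abundant, with summed beta cell hormone genes at 165526 to 569462 TPM, while 6 acinar genes summed to between 1429 and 258590 TPM, so exocrine RNA differed widely between libraries. In 12 libraries (6 of 129, 2 of NOD and 4 of WSB), Xist and the Y-linked genes went against the sex label. Library numbers fall into 3 ranges: those of AJ, B6, CAST and WSB lie in 1 to 32 and 34 to 65, and those of 129, NOD, NZO and PWK in 66 to 100, so these 4 strains and their number range cannot be told apart from the others. Nothing in the labels ties a library to 1 mouse, and p-values measure the spread between libraries, which may in part be technical.

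Both genes were detected at high levels in all libraries, Abcc8 the higher of them. On the scale of TPM, which divides by transcript length and allows a comparison between genes, Abcc8 had a mean of 381 ± 97.6 (SD, n = 91 libraries) and ranked 117 among the 15204 genes tested, and Kcnj11 had a mean of 53.3 ± 12.7 and ranked 1197. TPM is also a share of each library's RNA and moves with insulin and exocrine transcripts. Levels between strains are therefore given as normalized counts (expected counts scaled by the upper quartile of each library), which are not corrected for length. In whole islets, fewer cells of a type and less RNA per cell cannot be told apart. Reads of all strains were counted on mm10, the B6 reference genome. How far this moves the levels of the other strains against B6 was not tested.

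**Figure D1:**
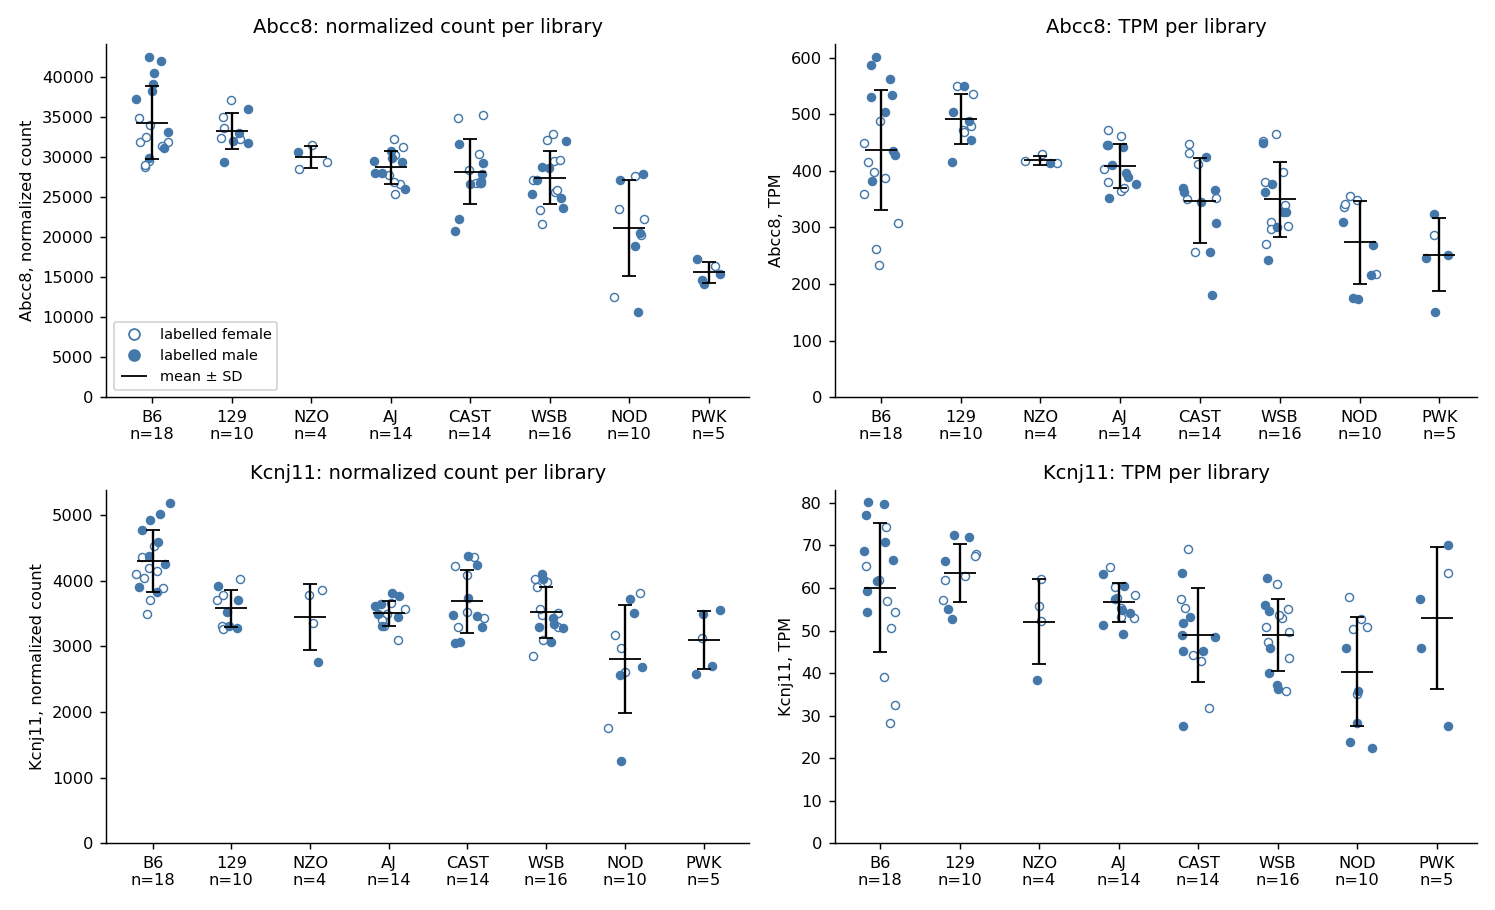
Level of Abcc8 (top) and Kcnj11 (bottom) in each of the 91 libraries by strain, as normalized counts (left) and TPM (right); open points are labelled female, filled points labelled male, and black bars give the mean ± SD. The 5 PWK libraries lie between 14164 and 17299 normalized counts of Abcc8, below all other libraries except 2 of NOD, while their Kcnj11 values overlap those of every strain.

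Abcc8 was lowest in PWK. Its normalized count in the 5 PWK libraries was 14164, 14663, 15408, 16404 and 17299, a mean of 15587 ± 1276 (SD, n = 5). Among the 86 libraries of the other strains, only 2, both of NOD, were at or below the highest PWK value, and both were also below the lowest.

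In the other strains the levels of Abcc8 ran from NOD to B6. NOD had a mean of 21141 ± 5963 (n = 10; lowest 10706, median 21403, highest 27907), the widest spread of any strain. The means of WSB, CAST, AJ and NZO lay close together. WSB had 27408 ± 3323 (n = 16; 21636, 27151 and 32917 as lowest, median and highest), and CAST 28195 ± 4044 (n = 14; 20797, 27424 and 35227). AJ had 28716 ± 2086 (n = 14; 25413, 28734 and 32272), and the 4 NZO libraries had 28475, 29388, 30671 and 31459. The highest levels were those of 129, with 33258 ± 2255 (n = 10; 29411, 32683 and 37118), and B6, with 34306 ± 4537 (n = 18; 28736, 32844 and 42541). From B6 down to WSB, no strain differed from the next in this order (adjusted p from 0.381 to 0.806). The differences of WSB from NOD and of NOD from PWK passed the threshold (adjusted p 0.000143 and 0.00129), although the libraries of NOD overlapped those of both strains. The first was lost with immune genes as a covariate (adjusted p 0.779) and the second on log2(TPM + 1) (adjusted p 0.639).

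The strain test of Abcc8 gave an adjusted p of 1.82e-15 (edgeR's quasi-likelihood F test), but 97.4% of all genes tested did so at an adjusted p under 0.05, and the strain test alone says little about this gene. The difference of PWK from the mean of the other 7 strains was -0.88 on the log2 scale of normalized counts (SE 0.11, adjusted p 9.89e-11), or 0.543 times their level, and all 5 PWK libraries lay below the median of the others, 29425. Of all genes, 45.1% differed in this contrast, 23.2% being higher in PWK and 21.8% lower. Abcc8 was also lower in PWK than in each of the other strains taken singly, a pattern shared by 701 genes, or 4.61%. On TPM, PWK libraries had 150, 246, 252, 287 and 324 and overlapped 19 of the other 86 libraries, and the difference was -0.62 on the log2(TPM + 1) scale (adjusted p 0.000498, limma). There the difference between NOD and PWK did not pass the threshold.

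Markers of other islet cells moved with the same contrast. In PWK, the alpha cell genes Gcg, Irx2 and Ttr were higher, as were the delta cell genes Sst and Hhex, with log2 differences from 0.79 (Irx2) to 1.66 (Sst), while the PP cell gene Ppy was lower (-0.93, adjusted p 0.00712). Of 6 beta cell markers, Ins2 (-0.80), Iapp (-0.78) and Ucn3 (-0.90) were lower, Slc30a8 (0.50) and G6pc2 (0.53) were higher, and Ins1 was at -0.10 (adjusted p 0.574). Summed alpha cell genes spanned 12191 to 42821 TPM in PWK and 3401 to 53563 TPM over all libraries. With summed beta cell hormone genes as a covariate, the PWK difference of Abcc8 was -0.78 (adjusted p 5.39e-09), and with summed acinar genes it was -0.87 (adjusted p 1.79e-10). The part of alpha and delta cells in the difference was not tested.

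Kcnj11 was not shown to be lower in PWK. Its normalized count there was 2582, 2702, 3134, 3497 and 3556, a mean of 3094 ± 445 (n = 5), and 42 of the 86 other libraries lay at or below the highest of these values. The difference of PWK from the mean of the other strains was -0.19 (SE 0.10, adjusted p 0.122), or 0.877 times their level, and it did not pass the threshold. All 5 PWK libraries nevertheless lay below the median of the others, 3569. The value and the call depended on the fit. Without the 12 libraries that go against their sex label the difference was -0.20 (adjusted p 0.0334), and without 3 NOD libraries rich in immune transcripts it was -0.22 (adjusted p 0.0161), both past the threshold. With summed beta cell hormone genes as a covariate it was -0.07 (adjusted p 0.577). On TPM the PWK mean was 52.9 ± 16.7 and that of all other libraries 53.4 ± 12.5.

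NOD and B6 marked the ends of the range of Kcnj11. NOD had the lowest mean, 2803 ± 825 (n = 10; lowest 1248, median 2827, highest 3808), and it again had the widest spread. This lowest place rests on 3 NOD libraries rich in immune transcripts, without which the NOD mean lay above that of PWK. The 4 NZO libraries had 2765, 3359, 3787 and 3860. AJ had 3500 ± 192 (n = 14; 3102, 3496 and 3808), WSB 3518 ± 388 (n = 16; 2849, 3460 and 4104), 129 3582 ± 282 (n = 10; 3269, 3613 and 4020) and CAST 3687 ± 476 (n = 14; 3050, 3501 and 4376). B6 stood highest with 4296 ± 469 (n = 18; 3494, 4223 and 5181), although its lower libraries overlapped the other strains. Below B6, no strain differed from the next in the order of the means (adjusted p from 0.305 to 0.947).

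The strain test of Kcnj11 gave an adjusted p of 8.08e-08. Kcnj11 was higher in B6 than in each of the other 7 strains, which held for 140 genes, or 0.921%. The pattern was not kept under every alternative. Of the 7 pairs with B6, 3 passed with sums per sample and 5 with the immune covariate. In TPM, Kcnj11 had a higher mean in 129 (63.6 ± 6.87) than in B6 (60.1 ± 15.2), and on log2(TPM + 1) 1 of the 7 pairs with B6 passed the threshold, that with NOD.

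Among the 28 pairs of strains, 19 differed in Abcc8 and 12 in Kcnj11, and the plot of paired differences shows that the 2 genes parted mainly in the pairs with PWK. Abcc8 was lower in PWK than in B6 by 1.14 (SE 0.12), than in 129 by 1.09 (SE 0.13), than in NZO by 0.95 (SE 0.15), than in AJ by 0.88, CAST by 0.86, WSB by 0.82 and NOD by 0.44 (SE 0.12, adjusted p 0.00129), all in log2 units. For Kcnj11 B6 differed from PWK, by 0.47 (SE 0.11, adjusted p 0.000228), and the other 6 pairs with PWK did not pass. The nearest of these was CAST, 0.25 above PWK (adjusted p 0.0609), which passed with TMM (adjusted p 0.0272), median-ratio size factors, DESeq2, and without PWK library 66 or 67 (adjusted p 0.0444 and 0.0392). Without the libraries that go against their sex label, 3 pairs with PWK passed for Kcnj11 (B6, CAST and WSB), and without the 3 NOD libraries rich in immune transcripts 3 passed as well (B6, CAST and 129). For the same gene, NOD lay 0.14 below PWK (adjusted p 0.305). Of all genes tested, between PWK and these strains 49.5% (B6), 41.3% (129), 42.1% (NZO), 53.9% (AJ), 43% (CAST), 50.2% (WSB) and 57.3% (NOD) were called.

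**Figure D2:**
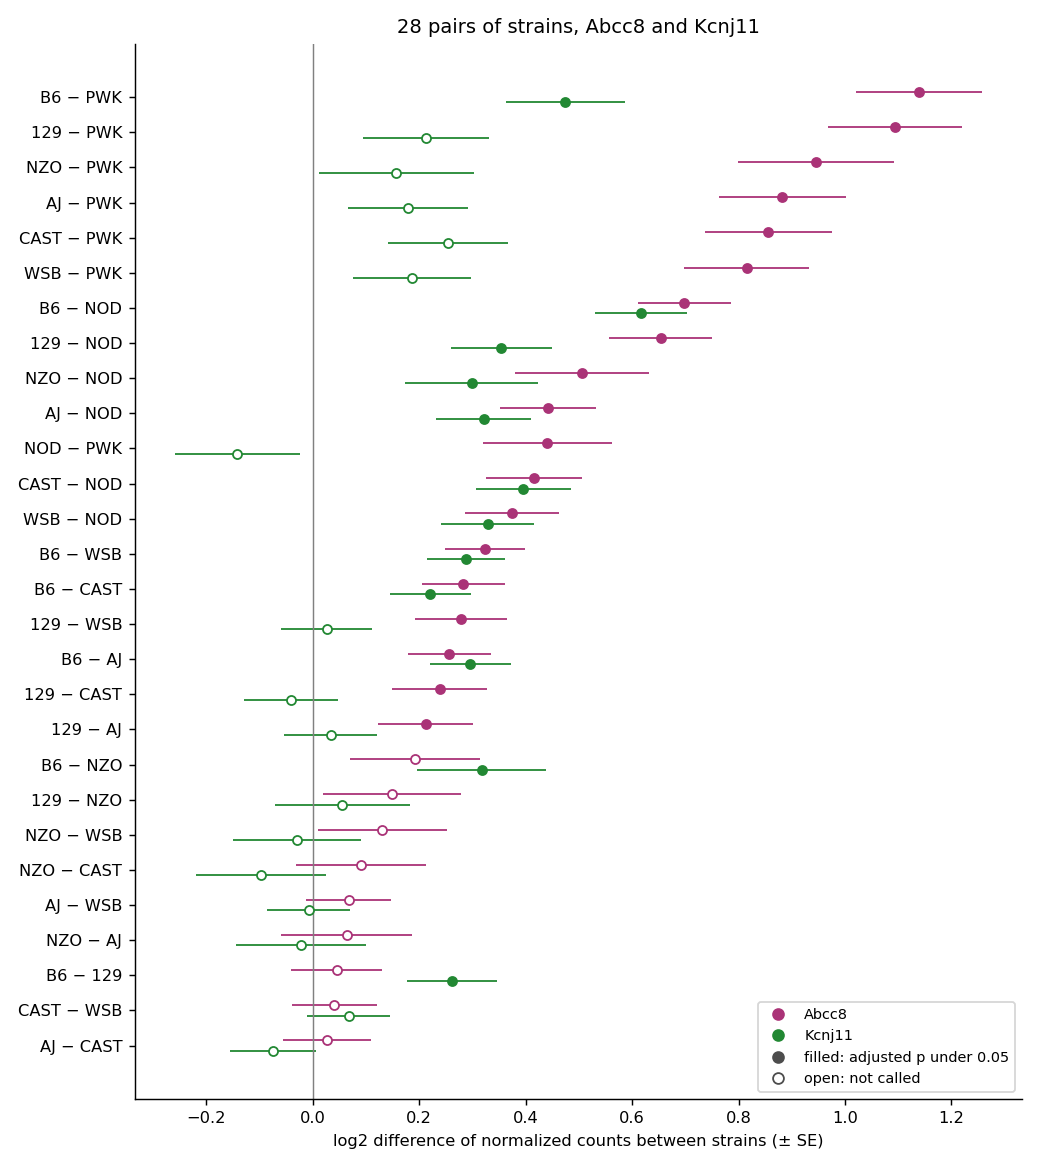
Log2 difference of normalized counts (± SE) between each of the 28 pairs of strains, for Abcc8 (purple) and Kcnj11 (green), written so that Abcc8 is positive; filled points have an adjusted p under 0.05. Abcc8 is past the threshold in all 7 pairs with PWK and Kcnj11 in 1 of them, whereas both pass in the 6 pairs of NOD with the strains other than PWK.

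The low level in NOD was common to both genes. Relative to NOD, Abcc8 was higher by 0.70 in B6, 0.65 in 129, 0.51 in NZO, 0.44 in AJ, 0.42 in CAST and 0.37 in WSB, and Kcnj11 by 0.62, 0.35, 0.30, 0.32, 0.40 and 0.33 in the same strains, all past the threshold. The Kcnj11 difference between NZO and NOD was lost when NZO library 86 (adjusted p 0.148), 88 (0.0666) or 89 (0.168) was left out, and also with the acinar or beta cell hormone covariate, on log2(TPM + 1), with sums per sample and without the libraries that go against their sex label. Further Kcnj11 calls were lost for 129 and NOD without those libraries, for AJ and NOD with the beta cell hormone covariate, and for CAST and NOD on log2(TPM + 1). The share of all genes called was high in these pairs, at 64.7% (B6), 63.3% (129), 44.3% (NZO), 66.9% (AJ), 66.2% (CAST) and 64.5% (WSB).

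Immune transcripts differed widely between the NOD libraries. The sum of 6 immune genes ran from 29.1 to 2613 TPM in NOD, against 8.55 to 124 TPM in the other strains. The lower NOD libraries thus lay within the range of the other strains. In the 3 NOD libraries with more than 1000 TPM of these genes, Abcc8 was between 10706 and 20274 and Kcnj11 between 1248 and 2610, and in the other 7 Abcc8 was between 18857 and 27907 and Kcnj11 between 2559 and 3808. When immune transcripts entered the model as a covariate, 2 of the 7 pairs with NOD kept their Abcc8 call, those with B6 and PWK. For Kcnj11, 0 kept it (the smallest adjusted p was 0.0796, against B6). Without the 3 libraries, all 7 pairs with NOD remained called for Abcc8, and 2 for Kcnj11, those with B6 and CAST. In the pair with PWK, NOD was the higher strain in Abcc8, so that call does not show a low level in NOD. What immune cells contribute to the low levels in NOD was not tested beyond these fits.

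B6 exceeded AJ, CAST and WSB in both genes, by 0.26, 0.28 and 0.32 for Abcc8 and by 0.30, 0.22 and 0.29 for Kcnj11. For Kcnj11 it also exceeded 129 by 0.26 (adjusted p 0.00929) and NZO by 0.32 (adjusted p 0.0306). The background share was 45.6% for AJ, 48.8% for CAST, 49.8% for WSB, 40.6% for 129 and 37.2% for NZO. The Kcnj11 call against NZO was lost without NZO library 88 (adjusted p 0.074) or 90 (adjusted p 0.247). When the libraries of each sample were summed, neither gene differed between B6 and AJ, CAST or WSB at the threshold, nor did Kcnj11 between B6 and 129. The Abcc8 difference of B6 from AJ was also lost on log2(TPM + 1).

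On normalized counts, the remaining pairs separated 129 from others for Abcc8 alone. There 129 lay above AJ by 0.21 (adjusted p 0.042), above CAST by 0.24 (adjusted p 0.0202) and above WSB by 0.28 (adjusted p 0.00476). For Kcnj11 the differences of 129 from these strains were 0.03, -0.04 and 0.03 (adjusted p from 0.718 to 0.816). On log2(TPM + 1), however, Kcnj11 was called between 129 and CAST and between 129 and WSB. Without the libraries that go against their sex label, 6 of which are of 129, none of these 3 pairs was called for Abcc8, nor was any with the libraries of each sample summed. The difference of 129 from AJ was also lost under both other scalings, both other filters, DESeq2, log2(TPM + 1) and the immune covariate (adjusted p from 0.0604 to 0.19), and that of 129 from CAST with the beta cell hormone covariate. No difference of either gene passed the threshold between 129 and NZO, AJ and CAST, AJ and NZO, AJ and WSB, CAST and NZO, CAST and WSB, or NZO and WSB. In these 10 pairs the share of genes called was 49.3% (129 and AJ), 52% (129 and CAST), 55.1% (129 and WSB), 37.3% (129 and NZO), 55.1% (AJ and CAST), 39.7% (AJ and NZO), 48.8% (AJ and WSB), 47.4% (CAST and NZO), 56% (CAST and WSB) and 37.7% (NZO and WSB).

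The ratio of the subunit mRNAs within a library does not depend on how libraries are scaled against each other, and it set PWK apart. In the 5 PWK libraries, the TPM of Abcc8 divided by that of Kcnj11 was 4.39, 4.53, 4.63, 5.36 and 5.44 (mean 4.87 ± 0.494). In the other strains the mean ratio ran from 6.92 ± 0.605 in NOD (n = 10) through 7.14 ± 0.749 in CAST (n = 14), 7.21 ± 0.965 in WSB (n = 16), 7.22 ± 0.698 in AJ (n = 14), 7.33 ± 0.552 in B6 (n = 18) and 7.77 ± 0.616 in 129 (n = 10) to 8.29 ± 1.75 in NZO (n = 4). Only 1 of the 86 other libraries, a WSB female at 4.90, was at or below the highest PWK value.

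The mean log2 ratio of PWK was lower than that of the other libraries by 0.58 (2.28 against 2.86), or 0.668 times, with a permutation p of 1e-05 (two-sided, 100000 permutations, the smallest value they can give). The ratio also differed over all strains with a permutation p of 1e-05, strain labels being permuted within labelled sex. Of the 28 pairs, 8 were called after Benjamini-Hochberg adjustment over the pairs. These were all 7 pairs with PWK (adjusted p from 0.000803 to 0.0278, by exact permutation) and 129 above NOD (difference 0.17 log2, adjusted p 0.0274, by permutation), the latter lost without the 3 NOD libraries rich in immune transcripts. NZO had the highest mean and the largest spread, with 6.73, 7.72, 7.92 and 10.8, its only male library being the highest of all 91. The top place rests on that library, as the 3 NZO females had a mean of 7.45, below that of 129 (7.77). The difference of NZO from PWK was 0.75 log2 (exact permutation p 0.00794, the smallest that 4 against 5 libraries allow). With 1 library fewer in either strain, the smallest exact p that remains does not pass after adjustment over the 28 pairs. With expected counts in place of TPM the PWK ratio was 5.08 ± 0.45 and the difference -0.67 log2, and 14 pairs were called.

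**Figure D3:**
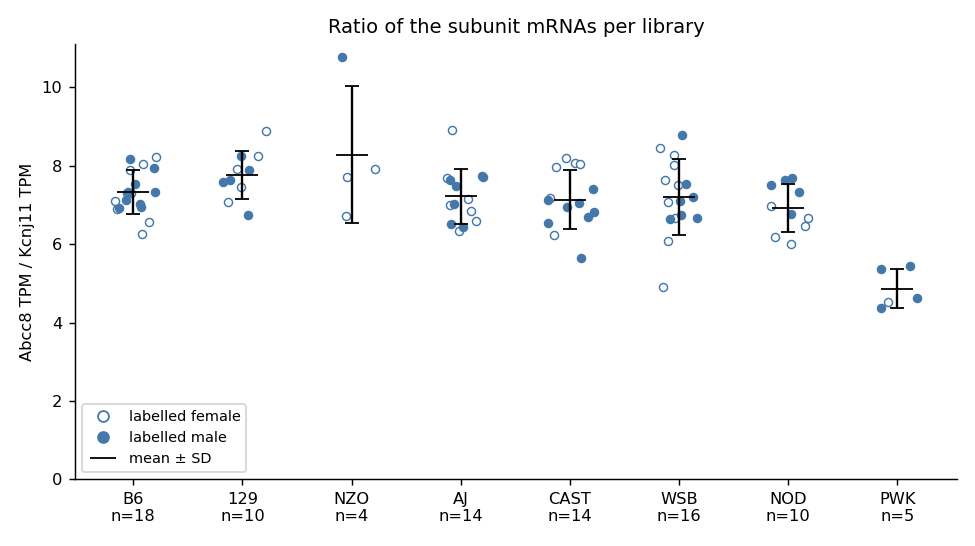
Ratio of Abcc8 TPM to Kcnj11 TPM in each library by strain, with open points labelled female, filled points labelled male, and the mean ± SD in black. The PWK libraries lie between 4.39 and 5.44, and the strain means of the others between 6.92 and 8.29.

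The transcript models behind these values also differed between the strains. RSEM gives each gene a length that is averaged over its transcripts by their estimated share, and for Abcc8, with 8 annotated transcripts, it was 2983 ± 144 bases in PWK, the lowest of the strains, and up to 3371 ± 101 bases in 129, the highest. The difference of PWK from the other libraries was -270 bases (permutation p 7e-05, two-sided). The ranges overlapped, with 39 of the 86 other libraries at or below the longest PWK value. That value was of library 75, at 3239 bases, and the remaining PWK libraries lay between 2890 and 2947 bases. For Kcnj11, with 5 annotated transcripts, the PWK mean of 2858 ± 55 bases was above only that of 129, 2827 ± 49.3, and the difference from the other libraries was -86.7 bases (permutation p 0.00443, two-sided). A shorter length raises TPM for the same number of reads. Which transcripts differ was not examined.

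Sex had no detectable effect on either gene. The difference of males from females was 0.00 log2 for Abcc8 (SE 0.05, adjusted p 0.986) and 0.01 for Kcnj11 (SE 0.05, adjusted p 0.976), where 4.01% of all genes were called. In the 6 strains that have 5 or more libraries per sex, the male minus female difference of Abcc8 was 0.23 in B6 and -0.20 in CAST and between -0.07 and 0.01 in the other strains. Without the libraries that go against their sex label, it was -0.13 in 129 and -0.04 in WSB. B6 males had 37072 ± 4677 normalized counts of Abcc8 and B6 females 31539 ± 2156 (n = 9 each), and CAST males had 26526 ± 3524 (n = 8) and CAST females 30421 ± 3838 (n = 6). For Kcnj11 the differences ran from -0.09 in CAST to 0.16 in B6. The interaction of strain and sex did not pass the threshold for Abcc8 (adjusted p 0.448) or Kcnj11 (adjusted p 0.789), against 5.9% of all genes. The same test did not pass without the libraries that go against their sex label (adjusted p 0.134 and 0.391).

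Differences between strains were also compared within the library number ranges. Among AJ, B6, CAST and WSB, which occur in both earlier ranges, Abcc8 differed with an adjusted p of 1.27e-05 and Kcnj11 with 8.86e-07 (84% of genes called), B6 being the highest for both. Within numbers 1 to 32 alone the adjusted p was 0.00304 for Abcc8 and 0.00951 for Kcnj11, and within 34 to 65 alone it was 0.00494 and 0.00049. B6 was higher than AJ, CAST and WSB in both ranges for both genes, with the exception that Kcnj11 of B6 and CAST differed by 0.16 (adjusted p 0.0799) in the first. Among 129, NOD, NZO and PWK, all numbered 66 to 100, Abcc8 of PWK was lower than the mean of the other 3 by 0.81 (SE 0.16, adjusted p 0.00014), and the strain test gave an adjusted p of 5.08e-06 (81.6% of genes called). For Kcnj11 the strain test over these 4 strains did not pass (adjusted p 0.109), and PWK differed by -0.04 (adjusted p 0.858). The ratio of Abcc8 to Kcnj11 was lower in PWK by 0.62 log2 over the same libraries (exact permutation p 8.42e-06, the smallest this design can give).

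Within strains, libraries with more Abcc8 also had more Kcnj11. After the strain means were removed, the log2 normalized counts had a Pearson r of 0.80 and a Spearman rho of 0.66 over the 91 libraries (both permutation p 1e-05, permuted within strains). NOD libraries weigh heavily in this value: without the 2 libraries farthest from the median of Abcc8, r was 0.65, and without the 3 NOD libraries of high immune transcripts it was 0.64. By number range, r was 0.47 in 1 to 32, 0.74 in 34 to 65 and 0.93 in 66 to 100. Both genes were divided by the same library factor and measured in the same RNA.

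The strength of the relation varied among the 6 strains with 6 or more libraries. It was closest in NOD (r = 0.99, rho = 0.95, n = 10), B6 (r = 0.90, rho = 0.91, n = 18) and CAST (r = 0.78, rho = 0.65, n = 14), with adjusted permutation p-values of r of 9e-05, 6e-05 and 0.00116 over the 6 strains. In 129 (r = 0.60, rho = 0.50, n = 10; adjusted permutation p 0.0963), WSB (r = 0.27, rho = 0.32, n = 16; 0.375) and AJ (r = 0.05, rho = 0.22, n = 14; 0.875) it did not pass. On log2(TPM), r was 0.70 in 129 and 0.70 in WSB, both called by r (adjusted permutation p 0.0284 and 0.00381), and 0.43 in AJ. Without the 2 libraries farthest from the strain's median of Abcc8, r was 0.96 in NOD, 0.86 in B6, 0.70 in CAST, 0.26 in 129, 0.57 in WSB and 0.43 in AJ, and the same 3 strains were called by r (adjusted permutation p of rho 0.124 in CAST). Whether r differs between strains was not tested. In AJ the library with the most Abcc8, 32272, had the least Kcnj11, 3102.

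**Figure D4:**
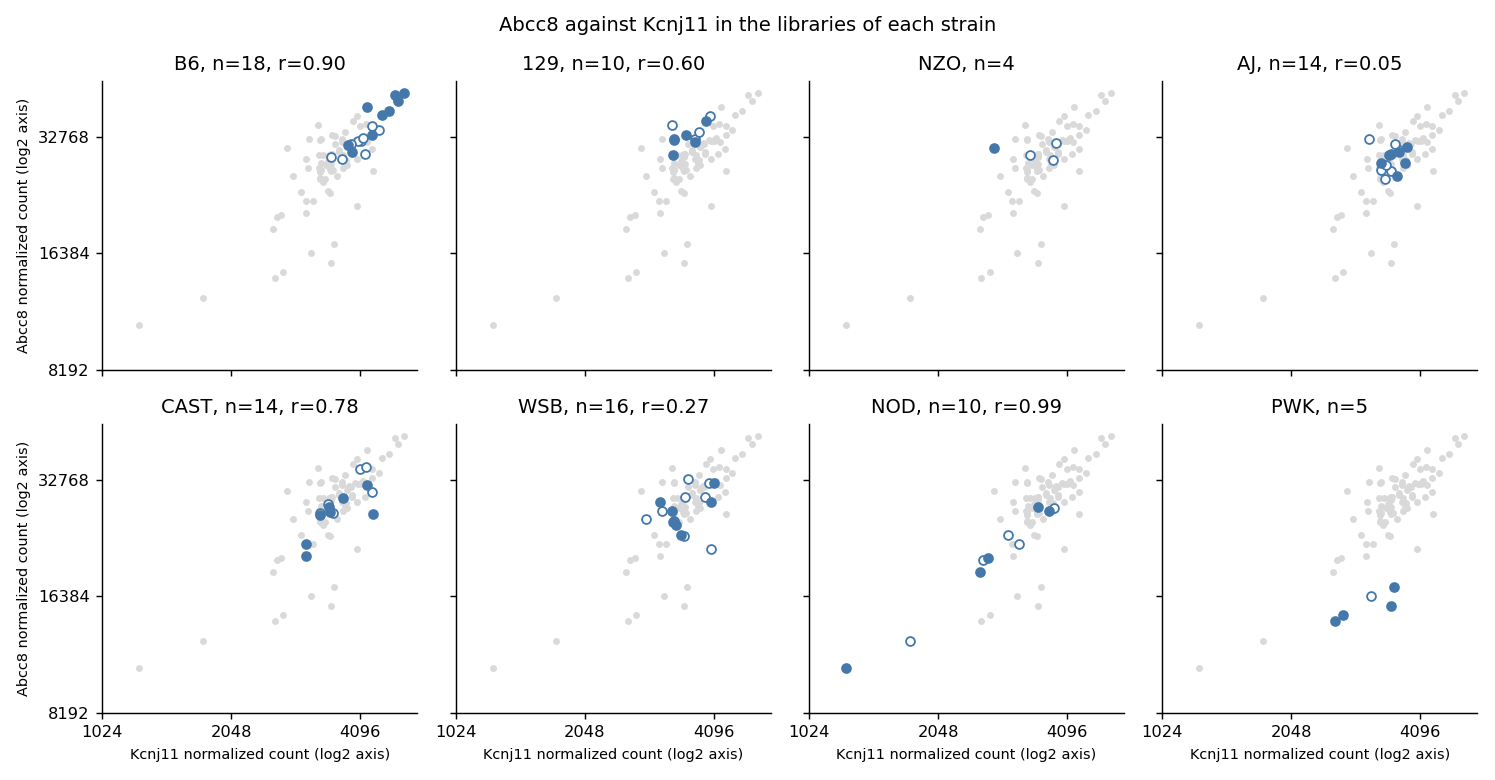
Abcc8 against Kcnj11 in normalized counts, both on log2 axes, with the libraries of each strain in colour (open labelled female, filled labelled male) over all libraries in grey. NOD, B6 and CAST stretch along a rising line (r of 0.99, 0.90 and 0.78), while the PWK libraries lie below most grey points at like counts of Kcnj11, at 14164 to 17299 counts of Abcc8.

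The members were also set against summed marker genes within strains, in 6 relations over the 91 libraries. With summed beta cell hormone genes r was 0.29 for Abcc8 (rho = 0.24) and 0.33 for Kcnj11 (rho = 0.31), with adjusted permutation p-values of 0.0375 and 0.0212 for r and of 0.105 and 0.0461 for rho, so that the rank test did not pass for Abcc8. With immune genes r was -0.41 for both (adjusted permutation p 0.0375 and 0.049), but rho was -0.06 and 0.01, and without the 2 libraries farthest from the median of immune genes r was -0.21 and -0.20, so that this relation rests on those libraries. With acinar genes r was -0.02 and -0.03.

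Among all 15204 genes tested, some resembled each member more closely than its partner did, as the highest of so many values may do by picking alone. Over the 8 strain means of log2 normalized counts, the genes closest to Abcc8 were Tspyl4 (r = 0.98), Nxph3 (0.97), Tdrkh (0.97), Scamp1 (0.97) and Nkx6-3 (0.96, at a mean of only 0.12 TPM), and Kcnj11 was in place 525 with r = 0.77. Among those closest to Kcnj11 were Elof1 (0.95), Prkca (0.94), Rap1gap2 (0.94) and RP23-175J8.3 (0.94), and Abcc8 was in place 387. With only 8 points such values are a description. Over the deviations of the 91 libraries from their strain means, the genes closest to Abcc8 were Zdhhc1 (0.89), Vwa5b2 (0.88), Rab36 (0.87), Nisch (0.87) and Grik5 (0.86), with Kcnj11 in place 24 (0.80). Those closest to Kcnj11 were Fbxl16 (0.87), Mapk8ip2 (0.86), Sptbn4 (0.86), Cog1 (0.85) and Bbs1 (0.85), with Abcc8 in place 13. The r of the pair itself was 0.77 over strain means and 0.80 within strains. Places over 8 and over 91 points are not comparable, and whether the members are closer within strains was not tested.

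Genes related to the channel were compared in the same contrast of PWK with the mean of the other strains. The close relatives Abcc9, which encodes SUR2, and Kcnj8, which encodes Kir6.1, form the KATP channel of vascular muscle. Both were low in islets, at 1.26 and 0.80 TPM, and both were higher in PWK, by 0.57 (SE 0.14, adjusted p 0.000369) and 0.52 (SE 0.21, adjusted p 0.0318), opposite in sign to Abcc8.

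Of 13 transcription factors that act in beta cells, 3 were higher in PWK, 2 were lower and 8 were not called, with a median difference of 0.23 against 0.01 over all genes. These are 23.1% higher and 15.4% lower, where 23.2% and 21.8% of all genes were called. Nkx6-1 (0.35), a regulator of beta cell identity, and Hnf4a (0.33) were among the higher ones. Neurod1 (-0.46, adjusted p 0.00479), a factor needed for islet formation and insulin transcription, and Glis3 (-0.34, adjusted p 0.0481) were lower. Foxa2, known to act on both channel genes, had a difference of 0.38 that did not pass (adjusted p 0.159).

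Among 6 proteins that bind or tune the channel, 2 were higher in PWK, 0 were lower and 4 were not called, with a median of 0.05. Over so few genes, 33.3% higher and 0% lower stand beside 23.2% and 21.8% of all genes. These were Ak1 (0.33, adjusted p 0.000353), an adenylate kinase that interconverts the nucleotides the channel senses, and Stx1a (0.24, adjusted p 0.0466), a syntaxin of the exocytosis machinery. Ank2, the ankyrin that anchors the channel, was at -0.22 (adjusted p 0.124) and Rapgef4, a cyclic AMP sensor that binds SUR1, at -0.11 (adjusted p 0.195).

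For 13 genes of the steps before and after the channel in secretion, 2 were higher, 2 were lower and 9 were not called (median -0.07). That is 15.4% in each direction, below the 23.2% and 21.8% of all genes. Cacna1c, the pore subunit of an L-type calcium channel, was higher by 0.44 (adjusted p 3.86e-05), as was the calcium sensor of exocytosis Syt7 by 0.24 (adjusted p 0.00478). Ins2, which encodes insulin, was lower by 0.80 (adjusted p 0.000158). Slc2a2, the glucose transporter of the beta cell, was at -0.13 (adjusted p 0.46).

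Genes around the pair were compared in the same way. Within 500 kb on either side of the gene pair, 33 other protein-coding genes are annotated and 26 were tested, of which 6 were higher in PWK, 6 were lower and 14 were not called, shares of 23.1% each that lie near those of all genes. The nearest tested genes on either side, Nomo1 before Kcnj11 and Ush1c after Abcc8, differed in opposite directions, by 0.33 (SE 0.10, adjusted p 0.00314) and -0.34 (SE 0.10, adjusted p 0.0028). The 2 most positive and the 2 most negative differences belonged to genes with little RNA, namely Izumo1 (1.86, mean 0.29 TPM), Tph1 (1.76, mean 0.56 TPM), Fam83e (-1.60, mean 0.26 TPM) and Fut2 (-0.91, mean 0.13 TPM, adjusted p 0.116). Sergef, at a mean of 5.33 TPM, was lower in PWK by 0.65 (adjusted p 2.74e-07).

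**Figure D5:**
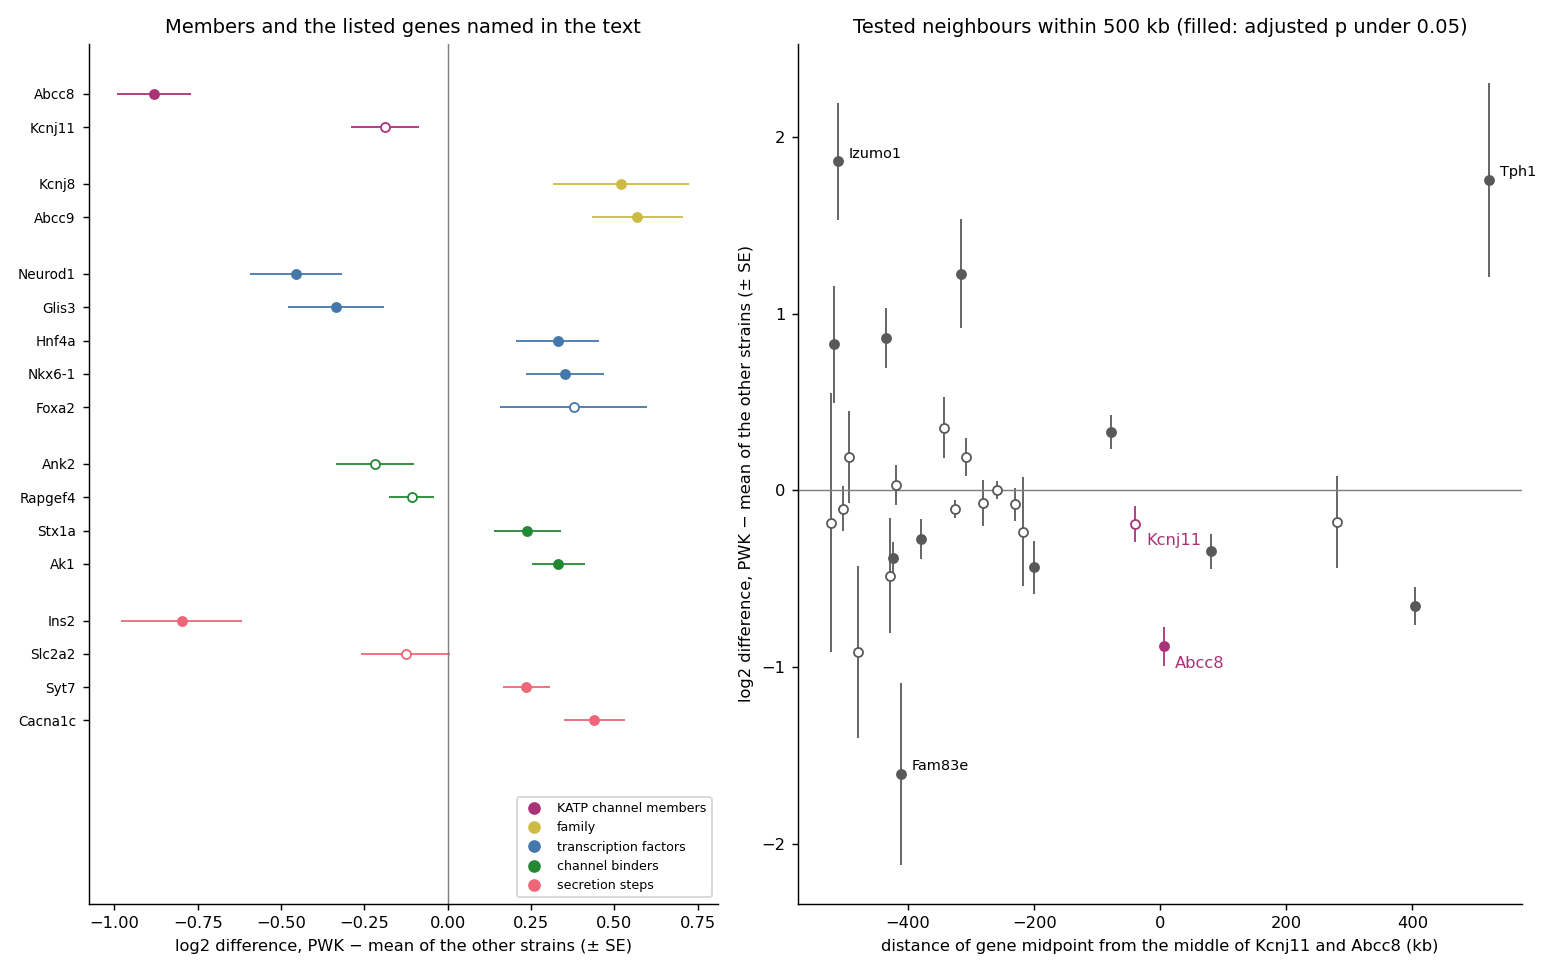
Log2 difference between PWK and the mean of the other strains (± SE), for the members and the listed genes named in the text, by group (left) and for the tested neighbours by the distance in kb of their midpoint from the middle of the gene pair (right); filled points have an adjusted p under 0.05. Abcc8 at -0.88 is the most negative of the genes shown on the left, with Ins2 next at -0.80, and neighbours on the right lie on both sides of 0.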

How the data were processed

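Whole-islet RNA was sequenced by the authors, who aligned and quantified it with RSEM (version not given in the sources used here) on mm10 with the GENCODE M18 annotation. The authors deposited 1 table per library with expected counts, TPM and a transcript length in bases for each gene. Each of the 91 tables was taken as 1 library. Positions and gene types came from GENCODE M21 on GRCm38, in which 54079 of 54146 genes matched.

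Expected counts were rounded. Protein-coding genes of chromosomes 1 to 19 and X were kept (21710), the 10% with the lowest variance were dropped, and genes non-zero in at least 85% of libraries (15204) were tested with edgeR 4.0.16 (quasi-likelihood test, upper-quartile scaling, strain and sex in the model) in R 4.3.3, with Benjamini-Hochberg adjustment over all genes and a threshold of 0.05. Permutation tests of the ratio, the lengths and the correlations used up to 100000 permutations (scipy 1.17.1). Total expected counts had a median of 27485367 per library, and the limits set by 3 counts cover counting error only. No library pair of a strain agreed within sampling noise (smallest chi-square per degree of freedom 8.78).

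Alternatives used TMM, median-ratio size factors, DESeq2 1.42.0, limma 3.58.1, other filters, log2(TPM + 1), marker covariates, sums per sample and subsets of libraries. The fits of 129, NOD, NZO and PWK alone and those without 3 NOD libraries over 1000 TPM of immune genes were chosen after seeing the data. The scripts were tested on simulated data. The members and lists were chosen with earlier results of these data known. In each list the genes named are the 2 with the largest and the 2 with the smallest difference of PWK, and for likeness the 5 highest correlations; some genes that the rule selects are not reported here by name, although they are counted in their lists. Hnf4a, Nkx6-1, Slc2a2, Nomo1, Ush1c and Sergef were named after their values were seen.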

Additional observations from a re-analysis of the deposited data

Results flagged for a closer look

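Among 85 tests for a library apart (17 groups of 1 strain and sex or of 1 strain, in 5 measures of the members), 2 libraries stood apart from their group, fewer than a rate of 5% would give. Abcc8 in NOD library 100, labelled female, was at 217 TPM, whereas the nearest of the other 4 libraries labelled female was at 335 TPM. That library goes against its sex label, and it is 1 of the 3 NOD libraries with over 1000 TPM of immune genes. The ratio of Abcc8 to Kcnj11 TPM in WSB library 44, labelled male, was 8.79, against 7.53 in the nearest of the other 6 males.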

How the results depend on the processing

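Of the results that answer a comparison, 238 values under alternatives kept their direction and their side of the threshold or stayed within 1.5 times the count. Counts were set against those of the main fit for the strains present. Another 6 counts moved further, 10 values changed sign, 2 came to pass the threshold and 1 ceased to pass it. Many of the 238 are fits that leave out a single library. The Kcnj11 difference of PWK passed the threshold without libraries that go against their sex label (-0.20) and without 3 NOD libraries of high immune transcripts (-0.22), and the Kcnj11 strain effect did not pass among 129, NOD, NZO and PWK alone (a range of 0.35 log2). Pairs called for Kcnj11 fell from 12 to 6 on log2(TPM + 1), 5 with the immune covariate and 7 with sums per sample. Those for Abcc8 fell from 19 to 13 with the immune covariate and to 13 with sums per sample, inside the limit of 1.5 times. Pairs called for the ratio rose from 8 to 14 with expected counts. Strains with a called correlation numbered 3 of 6, against 5 of 6 on log2(TPM) and 1 of the 4 strains that library numbers 1 to 32 hold. The cause of these changes was not tested. The sex difference, never called, turned negative for Abcc8 and Kcnj11 with limma-voom (-0.0030 and -0.0039), log2(TPM + 1) (-0.026 and -0.047), the immune covariate (-0.016 and -0.015), the beta cell hormone covariate (-0.018 and -0.018) and sums per sample (-0.015 and -0.054). The correlation in AJ turned negative with TMM (-0.25), after sex, number range and acinar genes (-0.12) and in numbers 34 to 65 (-0.59), and that in WSB in numbers 1 to 32 (-0.16). Leaving out each PWK or NZO library in turn gave -0.92 to -0.85 for the Abcc8 difference of PWK, -0.24 to -0.13 for Kcnj11 and -0.62 to -0.55 for the ratio, with 19 pairs called for Abcc8 each time, 10 to 13 for Kcnj11 and 7 to 8 for the ratio. No paired analysis was possible because the labels carry no replicate numbers. The 5 PWK and 4 NZO libraries limit the precision of their means.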
